A study of Mus musculus with 4 samples.

Results

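Arg2, Ass1, Asl, Otc, Cps1, Oat and Odc1 are 7 of the 32285 genes counted in 2 pooled libraries of mouse small-intestinal epithelium, and they were taken by their symbols. Together they make, split and use arginine. In mitochondria, Cps1 makes carbamoyl phosphate and Otc joins it to ornithine to give citrulline, which enterocytes of the adult small intestine release into the blood. Ass1 and Asl turn citrulline into arginine in the cytosol. Arg2, the mitochondrial arginase, splits arginine into urea and ornithine. Oat interconverts ornithine and the precursor shared by proline and glutamate, and Odc1 turns ornithine into putrescine, the first of the polyamines. The genes were chosen by a rule that used the measured levels of Arg2, which stood out between genotypes and led cells of the mice with hashtag 2. The differences of Arg2 between genotypes, and those between the hashtag-2 mice and the others, are therefore given as a description without a test.

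The study compared VilCreIfnlr1fl/fl mice, written KO here, with wild-type (WT) mice. In KO mice the Villin promoter drives Cre in the intestinal epithelium, where it removes the loxP-flanked gene of the interferon-λ receptor chain Ifnlr1. All mice received 11 Gy of gamma irradiation with the head, thorax and forelimbs shielded. Tissue was taken at 96 hours by the study design and at 3 days by the protocol. Epithelium was freed with EDTA, and live EPCAM+ CD45- cells of several mice were tagged with hashtag oligonucleotides and pooled into 1 KO and 1 WT library. Each library holds 3 hashtags (KO1 to KO3 and WT1 to WT3), taken as 3 mice each. Another independent run is mentioned in the labels and was not analysed here. No unirradiated mice were analysed, so nothing below is an effect of irradiation. Since each genotype went through 1 pool, genotype and pool cannot be told apart.

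Arg2 (ENSMUSG00000021125) lies on chromosome 12 at 79130777-79156301, plus strand, of GRCm38. Odc1 (ENSMUSG00000011179) lies on the same chromosome at 17544794-17551505, plus strand. Ass1 (ENSMUSG00000076441) spans 31470207-31520672 on the plus strand of chromosome 2, and Asl (ENSMUSG00000025533) spans 130011258-130029247 on the minus strand of chromosome 5. Otc (ENSMUSG00000031173) is X-linked at 10252305-10321024, plus strand. Cps1 (ENSMUSG00000025991) is the longest of the 7 genes at 108.2 kb, on chromosome 1 at 67123026-67231259, plus strand. Oat (ENSMUSG00000030934) lies on chromosome 7 at 132557478-132576398, minus strand. All 7 are annotated as protein coding, and the counts are of transcript 3′ ends, so no exon or isoform was measured.

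RefSeq promoter windows (GRCm38.p6) were found for 4 of the 7 genes. Those of Otc and Oat are shown, because the windows of Ass1 and Odc1 run into the annotated gene. Each window shown is the 250 bases before the gene, 5′ to 3′ on the strand of the gene. Otc is at chrX:10252055-10252304 on the plus strand and Oat at chr7:132576399-132576648 on the minus strand. Capitals mark matches to the searched motifs.
Otc: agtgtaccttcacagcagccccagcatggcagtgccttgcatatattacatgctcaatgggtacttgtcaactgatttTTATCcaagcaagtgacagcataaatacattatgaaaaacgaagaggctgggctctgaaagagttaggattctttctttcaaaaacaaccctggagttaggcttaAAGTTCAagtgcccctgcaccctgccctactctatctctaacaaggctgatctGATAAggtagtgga
Oat: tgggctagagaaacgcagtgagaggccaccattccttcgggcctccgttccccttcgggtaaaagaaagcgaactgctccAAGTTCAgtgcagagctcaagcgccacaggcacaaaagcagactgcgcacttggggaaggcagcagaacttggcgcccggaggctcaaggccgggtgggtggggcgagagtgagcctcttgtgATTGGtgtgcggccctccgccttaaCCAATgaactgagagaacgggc

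The motifs searched on both strands were the TATA box TATAAA, the CCAAT box CCAAT, the GATA site GATAA, the E-box CACGTG, the GC box GGGCGG, and AAGTTCA, which was chosen after the sequences were seen. The Otc window holds GATAA 2 times, once on each strand, and AAGTTCA once. The Oat window holds CCAAT 2 times, once on each strand, and AAGTTCA once. Of 32851 promoter windows of the same length, 22.58% hold GATAA, 33.85% hold CCAAT and 3.47% hold AAGTTCA. GC content was 43.6% in the Otc window and 60.0% in the Oat window, against a median of 52.4% over all windows. A match describes letters only.

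After filtering (at least 1000 UMIs, 500 genes and at most 25% mitochondrial UMIs), 4028 KO and 5563 WT barcodes were kept, of which 2868 KO and 2773 WT cells carried a single hashtag, 843 to 1030 per KO mouse and 845 to 1062 per WT mouse. 28 barcodes occurred in both libraries. Median depth was 9255.5, 20575 and 11623 UMIs per cell in KO1, KO2 and KO3, against 8527, 12657 and 9644 in WT1, WT2 and WT3. KO2 and WT2 stood apart from the other mice: 18.8% of KO2 and 13.3% of WT2 cells fell in the crypt gate, against at most 5 cells in any other mouse. KO2 was 34.7% of assigned KO cells and 54.4% of their UMIs, and WT2 was 31.2% of WT cells and 45.7% of UMIs. Levels are given as CPM, the UMIs of a gene per 1000000 UMIs of the same sum of cells. Ifnlr1 was at 26.9, 16.0 and 22.7 CPM in KO1, KO2 and KO3, against 22.6, 15.5 and 26.3 in WT1, WT2 and WT3. These 3′ counts overlapped between genotypes, and they do not check the deletion, whose position relative to the counted 3′ end is not given in the sources used here. Lists of epithelial markers were detected in both genotypes, and those of T cells, macrophages, stroma and erythroid cells summed to at most 4.23 CPM in any mouse. B and plasma cell genes summed to 1140 CPM in WT2 and at most 6.46 CPM in the other mice, and neutrophil genes to at most 30.5 CPM. Their part in the results was not tested.

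Summed over all cells of a mouse, 4 enzymes were far higher in both mice with hashtag 2. Arg2 was at 50.03, 316 and 67.0 CPM in KO1, KO2 and KO3, against 19.3, 173 and 19.4 CPM in WT1, WT2 and WT3. In each genotype the mouse with hashtag 2 was the highest, and KO1 and KO3 lay above WT1 and WT3 but below WT2, so the genotypes overlapped. Otc, the citrulline-forming enzyme, was at 13.4, 167 and 19.6 CPM in KO1 to KO3, against 5.12, 119 and 5.60 CPM in WT1 to WT3. Cps1 was at 16.0, 343 and 11.1 CPM in KO mice, against 10.5, 218 and 4.88 CPM in WT mice. Oat was at 53.7, 394 and 56.0 CPM in KO mice, against 39.6, 292 and 28.8 CPM in WT mice. In such sums, fewer cells of a type and less RNA per cell cannot be told apart.

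For the other 3 enzymes, KO2 and WT2 lay much closer to the remaining mice. Odc1 was at 139.9, 126 and 128 CPM in KO mice, against 121, 101 and 134 CPM in WT mice. Asl was at 12.9, 16.8 and 14.8 CPM in KO mice, against 13.7, 17.1 and 14.9 CPM in WT mice. Ass1 was at 7.33, 8.36 and 6.99 CPM in KO mice, against 3.77, 6.08 and 3.80 CPM in WT mice. In both genotypes the mouse with hashtag 2 was the highest for Asl and Ass1 and the lowest for Odc1. Each KO mouse lay above each WT mouse for Ass1, the only one of the 7 with no overlap between genotypes over all cells, although the gap was small next to the spread within WT. The share of all genes without such overlap was not counted.

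The mouse with hashtag 2 gave most UMIs of those 4 enzymes. KO2 held 86.5% of the assigned Arg2 UMIs of the KO library, 92.3% of Otc, 96.8% of Cps1 and 89.6% of Oat. WT2 held 88.3% of the assigned Arg2 UMIs of the WT library, 94.9% of Otc, 96.1% of Cps1 and 88.0% of Oat. These shares stand far above the 54.4% and 45.7% of all UMIs that KO2 and WT2 held. For Odc1 the shares were 52.9% in KO2 and 39.9% in WT2, for Asl 59.1% and 49.9%, and for Ass1 58.2% and 57.4%, nearer to the share of all UMIs.

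**Figure D1:**
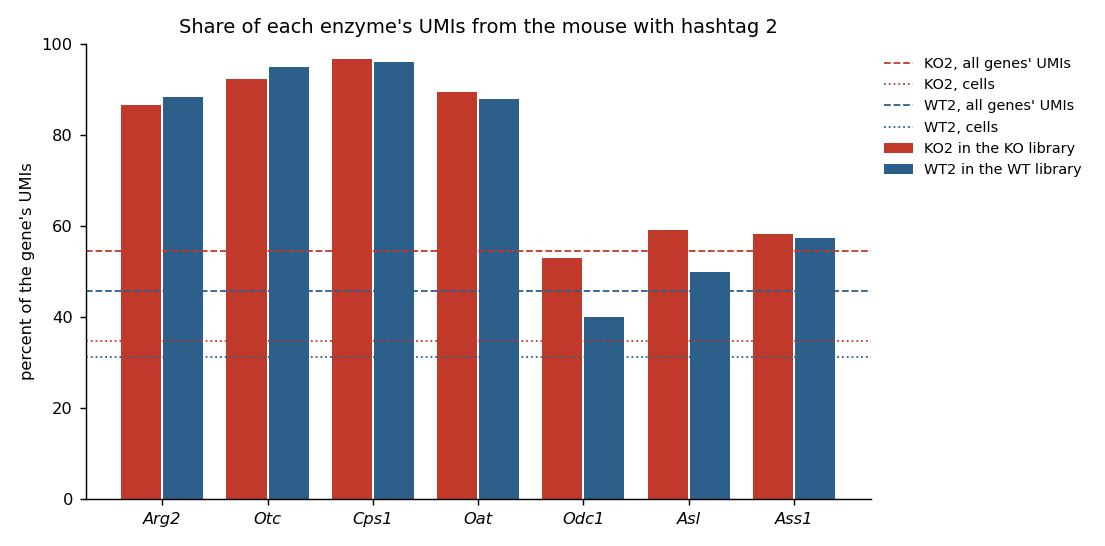
Percent of the assigned UMIs of each enzyme that came from the mouse with hashtag 2, with bars for KO2 in the KO library and WT2 in the WT library; dashed lines give the share of all UMIs of that mouse and dotted lines its share of cells. Arg2, Otc, Cps1 and Oat reach 86.5% to 96.8% in KO2 and 88.0% to 96.1% in WT2, while Odc1, Asl and Ass1 stay at 39.9% to 59.1%.

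Much of this excess lay in cells with many UMIs that were in the crypt gate, in no gate or at the lowest position score. Where the ungated and lowest-score cells lay in the tissue was not measured. The cells of the crypt gate, the ungated cells and the enterocyte-gated cells of the lowest position score (below -2, described further on) made up 3.88%, 37.0% and 7.95% of cells in KO1, KO2 and KO3, against 2.13%, 26.7% and 2.35% in WT1, WT2 and WT3. In KO2 they held 95.6% of Arg2, 97.6% of Otc, 97.1% of Cps1 and 93.6% of Oat UMIs, against 69.9% of all UMIs. In WT2 they held 90.0% of Arg2, 95.6% of Otc, 95.9% of Cps1 and 91.1% of Oat UMIs, against 53.3% of all UMIs. With these cells set apart, Arg2 was at 46.6, 45.8 and 47.0 CPM in KO1, KO2 and KO3, against 20.1, 37.2 and 16.7 CPM in WT1, WT2 and WT3. KO2 then lay level with KO1 and KO3. Every KO mouse lay above every WT mouse, and the share of all genes for which this held was not counted. Otc in the remaining cells was at 9.79, 13.3 and 11.2 CPM in KO mice, against 5.23, 11.1 and 4.41 CPM in WT mice, so WT2 fell between KO1 and KO3. Cps1 kept part of the hashtag difference, with 8.56, 33.0 and 6.36 CPM in KO mice, against 3.59, 19.1 and 4.02 CPM in WT mice. Oat did so too, with 42.3, 83.4 and 40.5 CPM in KO mice, against 30.3, 55.8 and 27.5 CPM in WT mice. This grouping was made after the data were seen.

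Cells were gated by the share of their UMIs in marker lists, none of which holds one of the 7 enzymes, and the gates are named after those lists. The crypt gate (stem or cell-cycle markers) held 187 cells of KO2 and 115 of WT2, and 2 to 5 in every other mouse, so its levels are those of 1 mouse per genotype and have no replicate. Crypt-gated cells had a median of 63025 UMIs. Cps1 was at 653 CPM in the crypt gate of KO2 and 582 CPM in that of WT2, its highest levels anywhere. Oat was at 624 CPM in KO2 and 521 CPM in WT2, also above its levels in all other gates. Otc was at 223 CPM in KO2 and 187 CPM in WT2, Odc1 at 156 and 148 CPM, Asl at 17.6 and 20.3 CPM, and Ass1 at 14.3 and 13.0 CPM. Arg2 was at 192 CPM in KO2 and 49.7 CPM in WT2, the widest ratio between these 2 mice among the 7 enzymes. Of all assigned Cps1 UMIs, 71.9% in the KO library and 74.3% in the WT library came from the crypt gate. For Arg2 these shares were 20.5% and 7.23%, and the bottom tertile of enterocytes held 66.7% and 78.2% instead.

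Goblet-gated cells, which secrete mucus, had less Arg2, Otc, Cps1 and Odc1 (in CPM) than enterocyte-gated cells of the same mice. Otc was at 1.48, 13.9 and 4.59 CPM in goblet cells of KO1, KO2 and KO3, against 17.6, 178 and 31.6 CPM in their enterocytes. In WT1, WT2 and WT3 it was at 4.59, 11.0 and 0.926 CPM in goblet cells, against 6.20, 119 and 7.56 CPM in enterocytes. Otc was lower in goblet cells in 6 of 6 mice, with a log2 fold change of -2.81 ± 0.42 (SE; edgeR quasi-likelihood test on sums per mouse, adjusted p = 0.000238). Odc1 was at 53.3, 68.6 and 51.4 CPM in goblet cells of KO1, KO2 and KO3, against 171, 121 and 167 CPM in their enterocytes. In WT mice it was at 40.5, 64.2 and 42.9 CPM in goblet cells, against 171, 92.7 and 169.6 CPM in enterocytes. It fell by 1.24 ± 0.16 on the log2 scale (adjusted p = 8.21e-05), without overlap between the gates.

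Cps1 was at 2.96, 54.0 and 4.59 CPM in goblet cells of KO mice, against 11.9, 156 and 13.0 CPM in their enterocytes. In WT mice it was at 2.87, 34.5 and 2.16 CPM in goblet cells, against 6.53, 67.6 and 3.78 CPM in enterocytes. The log2 fold change was -1.19 ± 0.16 (adjusted p = 0.000119), and within each gate the mouse with hashtag 2 was the highest. Arg2 was at 15.2, 51.2 and 23.6 CPM in goblet cells of KO mice, against 73.4, 567 and 105 CPM in enterocytes. In WT mice it was at 15.2, 33.7 and 18.8 CPM in goblet cells, against 25.1, 312 and 21.6 CPM in enterocytes, lower in goblet cells in 6 of 6 mice with a log2 fold change of -1.89 ± 0.48. Among 9901 genes tested, 68.5% passed in either direction and 36.8% were lower in goblet cells, so such calls were common.

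Oat was not called between these gates with all mice (log2 fold change 0.21 ± 0.34, adjusted p = 0.611), and its sign depended on the mouse. Goblet cells had 51.5, 138 and 67.0 CPM in KO1, KO2 and KO3, against 49.3, 273 and 54.1 CPM in enterocytes. In WT mice goblet cells had 44.5, 115 and 52.2 CPM, against 34.5, 229 and 20.2 CPM in enterocytes. Goblet cells were thus higher in 4 mice and lower in KO2 and WT2. Without KO2 and WT2, Oat was higher in goblet cells by 0.88 ± 0.19 on the log2 scale (adjusted p = 0.00133, 72.6% of genes called and 35.9% higher). Asl differed by -0.14 on the log2 scale (adjusted p = 0.336), with 9.63 to 13.4 CPM in goblet cells and 10.7 to 15.6 CPM in enterocytes of KO mice, and 10.0 to 13.2 CPM in goblet cells and 14.2 to 16.0 CPM in enterocytes of WT mice.

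Ass1, which joins citrulline to aspartate, was near the limit of detection in absorptive cells and higher in crypt, Paneth and enteroendocrine cells. Enterocytes had 0.109 to 1.22 CPM in KO mice and 0.335 to 0.725 CPM in WT mice, too low for the fits. Only 3.68% of Ass1 UMIs in the KO library and 5.83% in the WT library came from enterocyte-gated cells, although most cells were enterocytes. The crypt gate held 40.8% of Ass1 UMIs in the KO library and 43.5% in the WT library, and ungated cells 26.7% and 21.5%, while the tuft gate held 0 in both. In Paneth-gated cells, the crypt cells that secrete antimicrobial peptides, Ass1 was at 33.8, 1.94 and 24.9 CPM in KO1, KO2 and KO3, against 14.1, 9.10 and 3.25 CPM in WT1, WT2 and WT3. In enteroendocrine-gated cells, which secrete hormones, it was at 70.2, 9.69 and 18.2 CPM in KO mice, against 27.0, 32.5 and 21.3 CPM in WT mice. These gates hold 5 to 19 Paneth and 7 to 16 enteroendocrine cells per mouse. Summed per library, the Paneth gate held 96 Ass1 UMIs in KO and 24 in WT, and the enteroendocrine gate 31 and 15. The values of KO2 rest on 2 Ass1 UMIs in Paneth cells and 3 in enteroendocrine cells, at or under the 3 counts taken as the floor, as do those of KO3 and WT1 in enteroendocrine cells and WT3 in Paneth cells. Sets this small were not tested.

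Arg2 was low in the other secretory gates, with 6.46, 8.71 and 5.82 CPM in Paneth cells of KO mice, against 5.12, 3.03 and 3.25 CPM in WT mice. Oat in Paneth cells was at 60.3, 135 and 47.1 CPM in KO mice, against 33.3, 59.9 and 48.8 CPM in WT mice. Cps1 there was at 5.75, 62.9 and 2.65 CPM in KO mice, against 2.56, 47.8 and 0 CPM in WT mice, where WT3 had only 5 Paneth cells and a count of 0 allows up to 9.76 CPM. The mouse with hashtag 2 was thus the highest of its genotype for Cps1 in the Paneth, goblet and enterocyte gates. The crypt gate has too few cells in the other mice for such a comparison. Each of these gates was read from pooled droplets, and the share of free RNA in them was not tested.

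**Figure D2:**
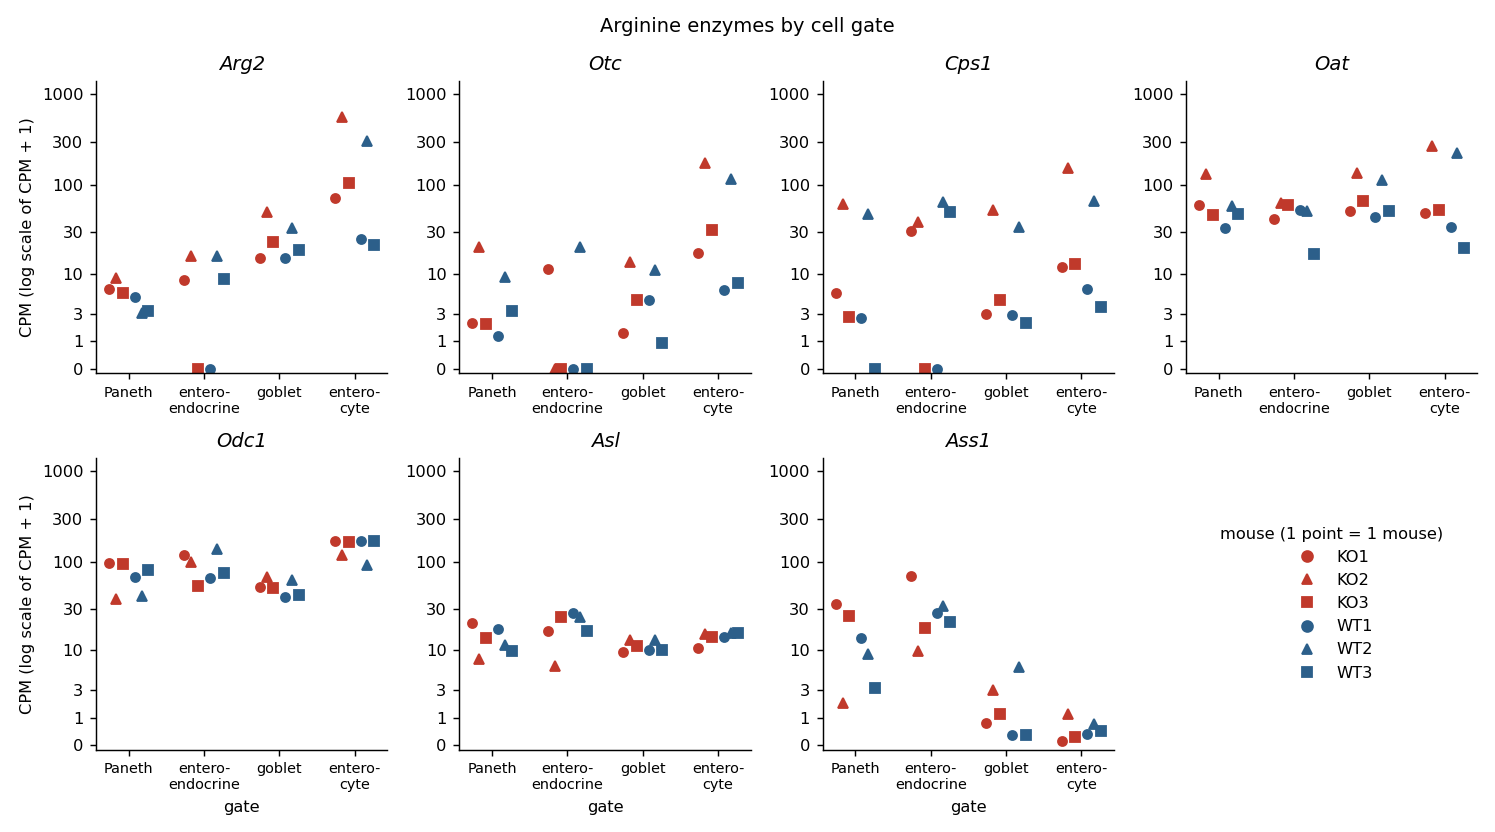
Level of each enzyme in CPM, on a log axis of CPM + 1, in 4 cell gates with 1 point per mouse; KO mice are red and left of WT mice in blue, and triangles are KO2 and WT2. Otc and Odc1 lie lower in goblet than in enterocyte cells in all mice, Ass1 is at most 1.22 CPM in enterocytes, and the triangles lead Arg2, Otc, Cps1 and Oat in enterocytes.

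Enterocytes mature as they move from the crypt to the villus tip, and a score of villus-top minus villus-bottom marker genes, none of them an arginine enzyme, ordered the 4155 enterocyte-gated cells. The score was split over all mice into 3 parts with equal numbers of cells, the bottom, middle and top tertile. It is a range of expression and not a measured position, and 880 cells lay within 0.1 of one of the cuts. A separate list of villus-middle markers did not peak in the middle tertile but was highest in the bottom tertile in every mouse. From bottom to top it was at 11305, 3300 and 2318 CPM in KO1 and at 8095, 3949 and 2665 CPM in WT3. The score is thus not shown to run evenly along the villus. Arg2, Otc, Cps1 and Oat were highest in the bottom tertile and Odc1 in the top tertile. Otc was at 37.1, 238 and 52.3 CPM in the bottom tertile of KO1, KO2 and KO3, at 5.80, 3.69 and 2.91 CPM in the middle tertile and at 2.26, 2.84 and 7.59 CPM in the top tertile. In WT1, WT2 and WT3 it was at 14.4, 166 and 16.2 CPM in the bottom tertile, at 5.00, 5.34 and 3.71 CPM in the middle tertile and at 0.845, 0 and 1.61 CPM in the top tertile. The 0 in WT2 allows up to 2.32 CPM. Otc fell in the top tertile by 4.46 ± 0.59 on the log2 scale against the bottom tertile (adjusted p = 7.18e-06), and it was lower in 6 of 6 mice.

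Of 8456 genes tested between these tertiles, 74.6% passed in either direction, 40.8% lower and 33.7% higher in the top tertile, with a median log2 fold change of -0.12. A call alone is thus ordinary. That median mixes rises and falls, and how many of all genes had folds as large as those of the enzymes was not counted. Cps1 was at 17.2, 208 and 18.2 CPM in the bottom tertile of KO mice, at 7.98, 8.0 and 4.99 CPM in the middle tertile and at 8.27, 6.25 and 8.28 CPM in the top tertile. In WT mice it was at 15.5, 94.7 and 6.38 CPM in the bottom tertile, at 2.22, 0.667 and 1.35 CPM in the middle tertile and at 2.96, 0.775 and 3.22 CPM in the top tertile. It was lower in the top tertile by a log2 fold change of -2.66 ± 0.63 (adjusted p = 0.00135), in 6 of 6 mice.

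Oat was at 86.9, 360.0 and 81.8 CPM in the bottom tertile of KO mice, at 23.2, 18.5 and 17.9 CPM in the middle tertile and at 22.9, 26.7 and 18.6 CPM in the top tertile. In WT mice it was at 75.5, 317 and 30.4 CPM in the bottom tertile, at 16.1, 12.7 and 12.8 CPM in the middle tertile and at 17.3, 13.9 and 15.8 CPM in the top tertile. The middle and top tertiles overlapped, and the top tertile was lower than the bottom by a log2 fold change of -2.44 ± 0.42 (adjusted p = 8.88e-05). Odc1 ran the other way, with 148, 101 and 129 CPM in the bottom tertile of KO mice, 177, 159 and 206 CPM in the middle tertile and 198, 194 and 231 CPM in the top tertile. In WT mice it was at 115, 64.3 and 110.4 CPM in the bottom tertile, at 165, 152 and 182 CPM in the middle tertile and at 219, 175 and 223 CPM in the top tertile. It was higher in the top tertile in 6 of 6 mice, by 1.15 ± 0.12 on the log2 scale (adjusted p = 5.60e-07). Asl did not pass (log2 fold change -0.13 ± 0.20, adjusted p = 0.565), and Ass1 was too low to be tested.

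Arg2 was at 144, 756 and 164 CPM in the bottom tertile of KO1, KO2 and KO3, at 26.8, 29.5 and 35.8 CPM in the middle tertile and at 21.8, 11.9 and 15.2 CPM in the top tertile. In WT1, WT2 and WT3 it was at 61.6, 433 and 42.9 CPM in the bottom tertile, at 12.8, 18.01 and 11.1 CPM in the middle tertile and at 6.76, 6.20 and 8.05 CPM in the top tertile. KO2 and WT2 led widely in the bottom tertile, WT2 led by less in the middle tertile, and both were the lowest of their genotype in the top tertile. Because Arg2 had led cells of the mice with hashtag 2, its test was taken from the other 4 mice, where the top tertile was lower than the bottom by a log2 fold change of -2.62 ± 0.15 (adjusted p = 4.55e-11, 68.8% of 8620 genes called). In those 4 mice Otc was lower by -3.14 ± 0.33, Cps1 by -1.04 ± 0.27 (adjusted p = 0.00203) and Oat by -1.52 ± 0.17, and Odc1 higher by 1.08, all log2 fold changes past the threshold. The falls of Arg2, Otc, Cps1 and Oat were smaller there than with KO2 and WT2 included (for Arg2, -3.77 ± 0.49 over all 6 mice).

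**Figure D3:**
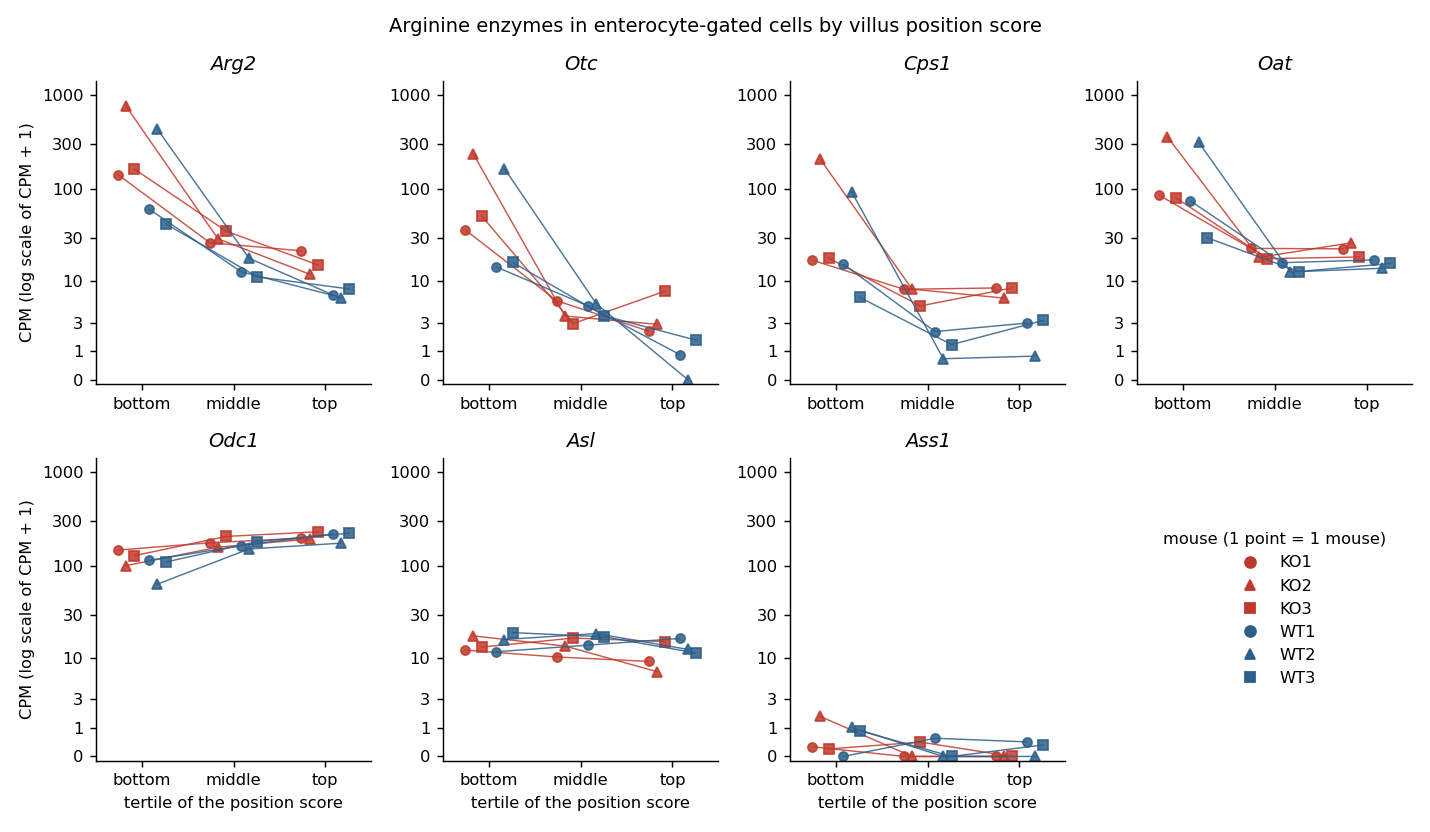
Level of each enzyme in CPM, on a log axis of CPM + 1, in the bottom, middle and top tertile of the position score, with 1 point and line per mouse (KO red, WT blue, triangles KO2 and WT2). Arg2, Otc, Cps1 and Oat fall after the bottom tertile, where KO2 and WT2 lie far above the other mice, and Odc1 is higher in the top than in the bottom tertile in every mouse.

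The share of cells with an Arg2 UMI was also highest in the mice with hashtag 2, while KO1 and KO3 stood in the other order than by level. With each cell thinned to 2000 UMIs, the share in the bottom tertile was 22.5% (exact 95% interval 17 to 28.9), 48.5% (41.8 to 55.1) and 15.7% (11.4 to 20.7) in KO1, KO2 and KO3. In WT1, WT2 and WT3 it was 6.45% (2.83 to 12.3), 26.8% (21.7 to 32.4) and 3.54% (1.63 to 6.62). The intervals cover counting error only, and 28 KO and 66 WT cells were too shallow to thin. In the goblet gate the thinned share was 3.36%, 5.71% and 3.12% in KO mice, against 1.18%, 4.76% and 3.73% in WT mice. The middle tertile had 4.78%, 3.18% and 4.88% in KO mice, against 1.97%, 4.67% and 1.01% in WT mice, so these shares lay about at the goblet level and are not read as expression per cell. The same holds for the bottom tertile of WT3, at 3.54% against 3.73% in its goblet cells. Without thinning, the bottom tertile had 60.4%, 75.9% and 54.6% in KO mice, against 30.5%, 52.1% and 22.2% in WT mice. The bottom tertile was also deeper, with median UMIs of 14414, 37675 and 14630.5 in KO mice, against 9036.5, 13815.5 and 9978.5 in WT mice.

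Finer ranges of the score followed the enzymes from its lowest to its highest values. Below a score of -2 lay 19, 127 and 38 cells of KO1, KO2 and KO3, against 4, 93 and 12 cells of WT1, WT2 and WT3, and the values of WT1 there rest on 4 cells. Arg2 in this lowest range was at 184, 886 and 314 CPM in KO mice, against 24.9, 636 and 109 CPM in WT mice. From -2 to -1 it was at 182, 184 and 135 CPM in KO mice, against 83.9, 145 and 44.2 CPM in WT mice. KO2 thus lay level with KO1 one step up from the lowest range, and from -1 to 0 it was the lowest KO mouse, with 108, 71.6 and 104 CPM in KO1, KO2 and KO3. In KO2 and WT2, Arg2 was higher in the lowest enterocyte range than in the crypt gate, whereas Cps1 and Oat were higher in the crypt gate.

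Cps1 below -2 was at 38.6, 248 and 42.9 CPM in KO mice, against 106, 148 and 8.04 CPM in WT mice. From -2 to -1 it was already down to 19.4, 21.7 and 13.0 CPM in KO mice, against 8.39, 10.5 and 11.7 CPM in WT mice. Otc below -2 was at 69.4, 280.0 and 118 CPM in KO mice, against 6.22, 252 and 40.2 CPM in WT mice, and from -2 to -1 at 52.2, 63.6 and 54.3 CPM in KO mice, against 41.9, 41.1 and 22.1 CPM in WT mice. In that second range KO2 and WT2 no longer stood apart for Otc and Cps1. Oat below -2 was at 219, 425 and 213 CPM in KO mice, against 541, 481 and 62.3 CPM in WT mice. Odc1 below -2 was at 113, 97.6 and 97.2 CPM in KO mice, against 149, 54.3 and 90.5 CPM in WT mice, and above 0.5 at 193, 184 and 225 CPM in KO mice, against 202, 175 and 220 CPM in WT mice. The excess of the hashtag-2 mice in Arg2, Otc and Cps1 within enterocytes lay mainly in the lowest range, where these mice also had the most cells.

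**Figure D4:**
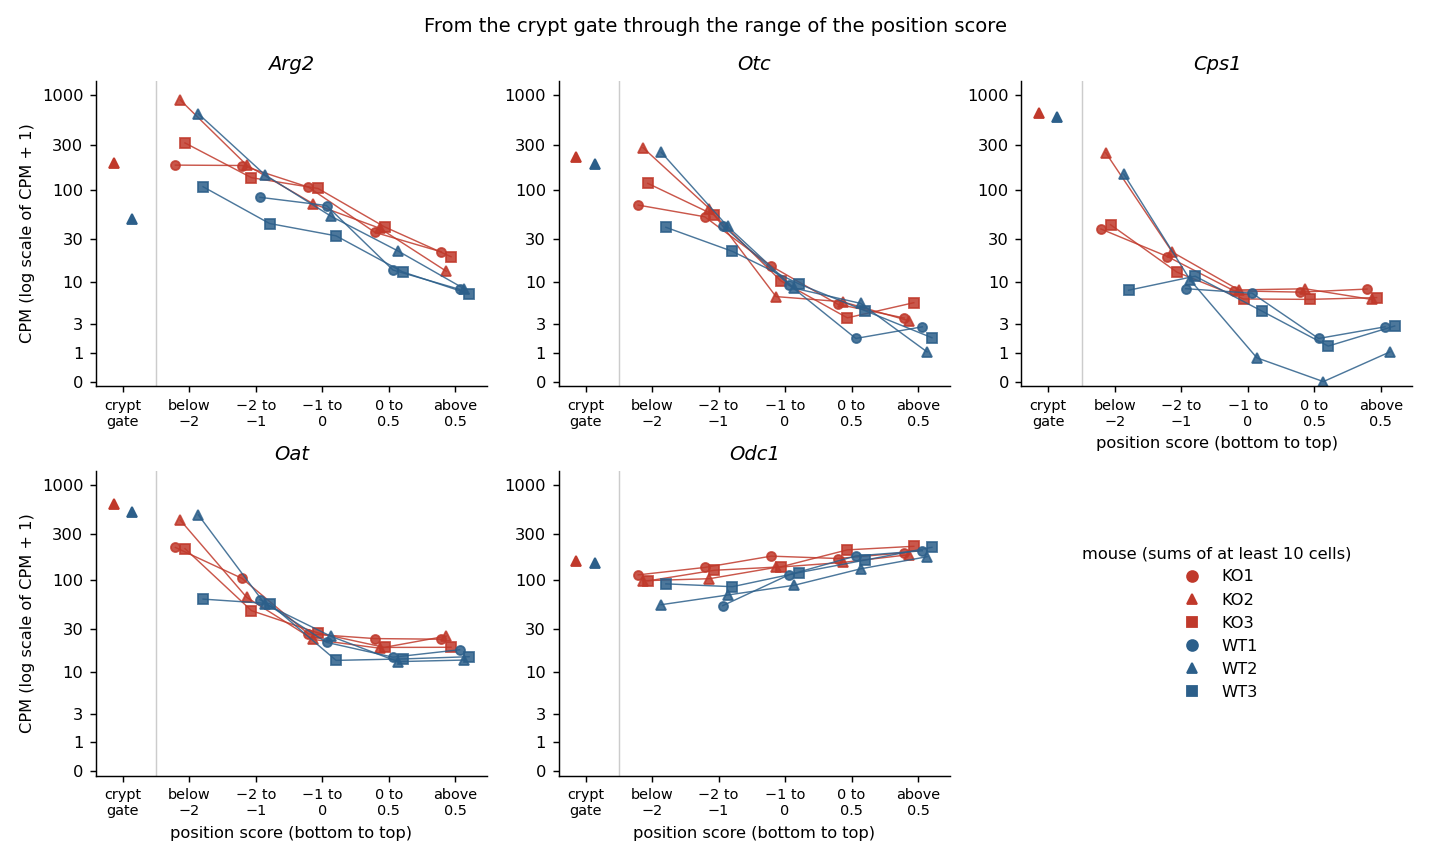
Level of 5 enzymes in CPM, on a log axis of CPM + 1, in the crypt gate (left of the grey line, KO2 and WT2 alone) and in 5 ranges of the position score of enterocyte-gated cells, 1 point per mouse with at least 10 cells (KO red, WT blue, triangles KO2 and WT2). Cps1 and Oat are highest in the crypt gate, Arg2 in the range below -2 (886 CPM in KO2 and 636 CPM in WT2), and the triangles lie nearer to the other mice from the second range on, where WT2 still leads the WT mice in Arg2.

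Both genotypes had the same order along the score. Within KO mice alone the top-over-bottom log2 fold change was -3.84 for Arg2, -4.19 for Otc, -2.41 for Cps1, -2.46 for Oat and 0.97 for Odc1 (60.4% of genes called). Within WT mice alone it was -3.66 for Arg2, -4.97 for Otc, -2.89 for Cps1, -2.35 for Oat and 1.38 for Odc1 (59.7% called). The 4 of these enzymes other than Arg2 passed in each genotype. The difference of the decline between genotypes was called for 0 of 9274 genes by edgeR, and for 81 genes (0.870%) without KO2 and WT2, none of them an arginine enzyme. Its size was 0.69 ± 1.48 for Otc, 0.39 ± 1.37 for Cps1 and -0.44 ± 0.22 for Odc1 on the log2 scale, so the intervals of Otc and Cps1 hold large differences in either direction.

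Between genotypes, no arginine enzyme passed over all cells, in enterocytes or in goblet cells in the fit without a replicate block. Over all cells edgeR called 0 of 12944 genes (0%), although 232 had an unadjusted p under 0.05, and the calls of DESeq2 numbered 38 (0.220%). KO means were 7.56 ± 0.712 CPM for Ass1 (SD, n = 3), against 4.55 ± 1.32 CPM in WT mice (SD, n = 3), a log2 fold change of 0.58 ± 0.24 (edgeR, adjusted p = 0.989). Odc1 averaged 131 ± 7.41 CPM in KO mice and 119 ± 16.5 CPM in WT mice, a log2 fold change of -0.06 after scaling of the libraries. Asl averaged 14.8 ± 1.95 CPM in KO mice and 15.2 ± 1.70 CPM in WT mice, a log2 fold change of -0.22. For the enzymes led by hashtag 2 the SD exceeded the mean in both genotypes, as in Cps1 with 123 ± 190 CPM in KO mice and 77.7 ± 121 CPM in WT mice.

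Single mice set the sign of these folds. Leaving out 1 mouse at a time, the KO over WT log2 fold change over all cells ran from -0.21 without KO2 to 2.53 without WT2 for Arg2, from -1.29 to 3.25 for Otc, from -2.42 to 3.61 for Cps1 and from -1.08 to 1.92 for Oat. Ass1 stayed between 0.52 and 0.68. A replicate block by hashtag number compares KO2 with WT2. This pairing was read from these same counts and no label states it, so every call with the block depends on it. With the block 152 genes passed (1.17%), and Arg2 had a log2 fold change of 1.16 ± 0.16, the value known when the enzymes were chosen. The other enzymes had adjusted p values of 0.0771 (Otc, 0.99), 0.0924 (Cps1, 0.63), 0.161 (Oat, 0.43) and 0.136 (Ass1, 0.58) in that fit, with the log2 fold changes in brackets.

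In enterocyte-gated cells the order of the mice was Arg2 at 73.4, 567 and 105 CPM in KO1, KO2 and KO3, against 25.1, 312 and 21.6 CPM in WT1, WT2 and WT3. Each KO mouse lay above the WT mouse of its own hashtag number for Arg2, Otc, Cps1 and Oat, while the genotypes as a whole overlapped. No label pairs mice by that number, and the share of all genes with this order was not counted. Without a block edgeR called 0 of 10703 genes (0%), although 496 had an unadjusted p under 0.05, and the calls of DESeq2 numbered 67 (0.467%). The log2 fold changes were 0.72 ± 1.31 for Otc, 1.15 ± 1.38 for Cps1, 0.34 ± 1.04 for Oat, -0.10 ± 0.34 for Odc1 and -0.34 ± 0.21 for Asl. With the replicate block 13.4% of genes passed and 6.76% were higher in KO mice. Otc was then higher in KO mice by 1.11 ± 0.23 (adjusted p = 0.0217) and Cps1 by 1.14 ± 0.16 (adjusted p = 0.00780), and Oat did not pass at 0.55 ± 0.18 (adjusted p = 0.0856).

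Without KO2 and WT2, 5.78% of genes passed in enterocytes, and 1.83% of all genes tested were higher in KO mice. Otc was higher in KO mice by 1.62 ± 0.31 (adjusted p = 0.0342), with 17.6 and 31.6 CPM in KO1 and KO3, against 6.20 and 7.56 CPM in WT1 and WT3. Cps1 was at 1.11 ± 0.27 (adjusted p = 0.0626) and Oat at 0.74 (adjusted p = 0.108), and neither passed. Arg2 was at 1.74 ± 0.20 with these mice left out and at 1.38 ± 0.21 with the block. Odc1 and Asl passed in none of these fits, at -0.04 (adjusted p = 0.872) and -0.33 (adjusted p = 0.194) with the block. In the goblet gate 4 of 9027 genes passed (0.0443%), none of them an arginine enzyme, with log2 fold changes of 0.34 for Arg2 and 0.74 for Cps1.

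**Figure D5:**
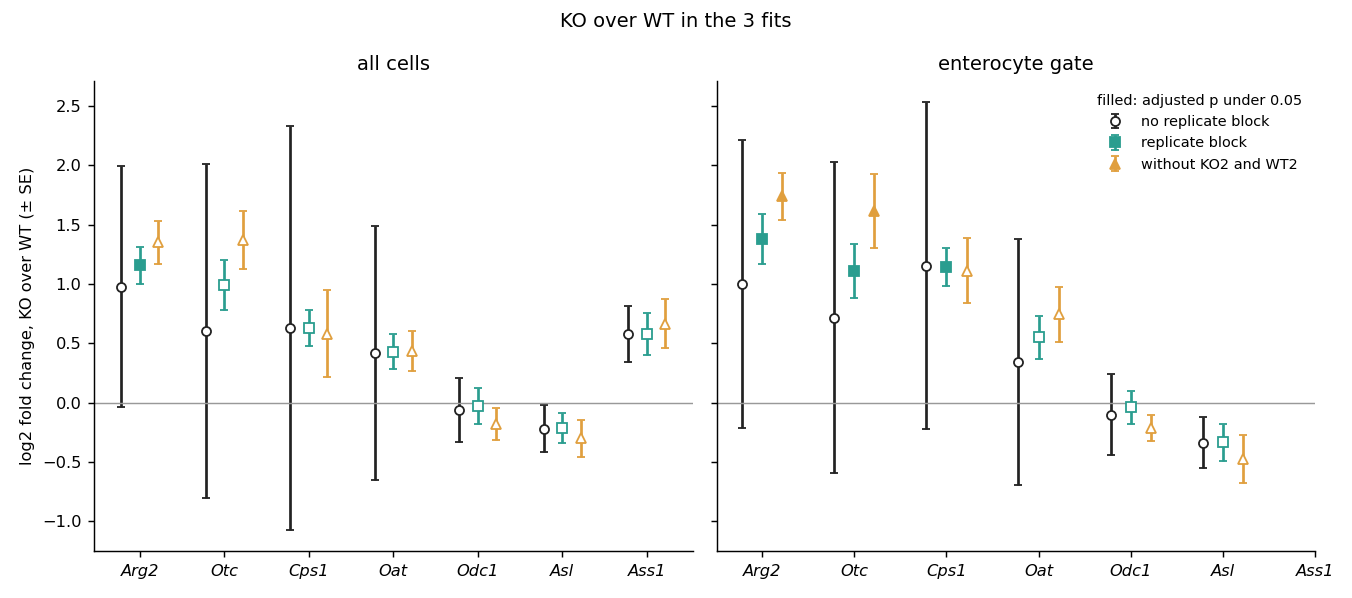
Log2 fold change of KO over WT with its SE for each enzyme over all cells (left) and in enterocyte-gated cells (right), in 3 fits of sums per mouse: all 6 mice without a block, with the hashtag number as replicate block, and without KO2 and WT2. Filled symbols have an adjusted p under 0.05; those of Arg2 are a description, since its values were known, and Otc is filled in enterocytes in the fits with the block and without hashtag 2.

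The genotype values by tertile show where along the score this lay. In the bottom tertile edgeR called 0 of 9671 genes without a block and 4.37% with it, where Otc was higher in KO mice by 0.97 (adjusted p = 0.0444) and Cps1 did not pass at 0.90 (adjusted p = 0.0558). Without KO2 and WT2 (4.19% of genes called), Otc was higher by 1.42 on the log2 scale (adjusted p = 0.0109). In the middle tertile 6.23% of 7479 genes passed and 2.34% were higher in KO mice. There KO and WT mice did not overlap for Arg2, Cps1 and Oat, and the share of all genes without overlap was not counted. Cps1 was higher in KO mice by 2.13 ± 0.47 (adjusted p = 0.0129) on 22, 13 and 12 UMIs in KO1, KO2 and KO3, against 4, 1 and 4 UMIs in WT1, WT2 and WT3. The call was lost without KO2 and WT2 (adjusted p = 0.0979, 3.53% of genes called), without KO2 alone (0.0519) and without WT3 (0.0883), and it could not be tested without KO1. The log2 fold change was 1.79 without KO2 and WT2, and it ran from 1.88 to 2.47 with single mice left out. Oat was at 0.44 in the middle tertile (adjusted p = 0.306) and did not pass.

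In the top tertile 6.95% of 6980 genes passed. The genotypes did not overlap there for Arg2, Otc, Cps1 and Oat, again without a count of such genes over the whole table. Cps1 was at a log2 fold change of 1.40 ± 0.42 (adjusted p = 0.0643) and Oat at 0.41 (adjusted p = 0.298), and Otc was too low to be tested. There 4.34% of genes passed without KO2 and WT2, and no arginine enzyme did. Arg2 was at 1.09 ± 0.22 in the middle tertile and 1.09 ± 0.30 in the top tertile, with 74, 48 and 86 Arg2 UMIs in the middle tertile of KO1, KO2 and KO3, against 23, 27 and 33 UMIs in WT1, WT2 and WT3. Goblet cells of the same pools had 15.2, 51.2 and 23.6 CPM of Arg2 in KO mice, against 15.2, 33.7 and 18.8 CPM in WT mice. These goblet levels overlap those of the middle tertile in both genotypes. The part of free RNA in the levels of the middle and top tertiles was not tested.

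Other genes of the pathway, from 4 lists without the 7 enzymes, fell along the score with Arg2, Otc, Cps1 and Oat where they handle ornithine, proline and glutamate. Of the 13 genes on that list 9 were tested, 8 were lower in the top tertile and 0 higher, with a median log2 fold change of -2.38 against -0.12 over all genes. Pycrl (-3.45) makes proline, Prodh (-2.88) oxidises it, Aldh18a1 (-2.84, adjusted p = 9.59e-05) makes the precursor of proline and ornithine from glutamate, and Got2 (-2.54) and Glud1 (-2.38) interconvert glutamate and 2-oxoglutarate. Without KO2 and WT2, 5 of 8 tested were lower and 0 higher, with a median of -1.62.

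Of the transport list 7 of 11 were tested. Slc25a15, which carries ornithine and citrulline across the mitochondrial membrane, was lower in the top tertile at -3.70 ± 0.26 (adjusted p = 3.11e-08), and Slc25a13, the mitochondrial aspartate-glutamate carrier, at -2.53. Both chains of the apical basic amino acid transporter were higher, Slc3a1 at 0.63 and Slc7a9 at 0.39 (adjusted p = 0.0186), and Slc7a7 of the basolateral exchanger was at -0.01 (adjusted p = 0.949). In all, 2 were higher and 3 lower. Of the arginine, urea and nitric oxide list only 4 of 12 were tested, with Ddah2 higher at 2.71 and Ddah1 lower, both of which break down methylarginines. Nos2, the inducible nitric oxide synthase, was at -0.04 (adjusted p = 0.919), and Arg1, the cytosolic arginase, was too low to be tested.

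Of the polyamine list 10 of 15 were tested, with 2 higher in the top tertile and 7 lower, where 33.7% of all genes were higher and 40.8% lower. The higher ones were Smox, spermine oxidase, at 2.72, and Azin1, the antizyme inhibitor that spares Odc1 from degradation, at 1.57 (adjusted p = 1.22e-07). Among the lower ones were Paox at -2.71, Oaz1, the antizyme that sends Odc1 to degradation, at -1.60 (adjusted p = 1.15e-07), and Sat1, which acetylates polyamines for export, at -0.51 (adjusted p = 0.000930). Odc1 and Azin1 were thus higher and Oaz1 lower toward the top at the level of RNA. The counts were 2 higher and 7 lower of 11 tested without KO2 and WT2.

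In goblet cells against enterocytes, where 68.5% of all genes were called and 36.8% were lower, the transport list had 2 higher and 4 lower of 9 tested genes. Slc7a1, a basic amino acid importer, was higher at 2.77, and Slc7a9 (-2.84, adjusted p = 2.09e-07), Slc25a15 (-2.07, adjusted p = 1.82e-05) and Slc7a7 (-1.61, adjusted p = 3.96e-06) were lower. The arginine, urea and nitric oxide list had 1 higher and 4 lower of 5 tested, with Nos2 at -3.64 (adjusted p = 3.61e-06). In the ornithine, proline and glutamate list Glul, glutamine synthetase, was higher at 4.49 and 6 of 10 tested genes were lower, while Aldh18a1 did not pass (0.83, adjusted p = 0.0721). The polyamine list had 7 higher and 4 lower of 14 tested, with Amd1, which feeds spermidine synthesis, higher at 1.15 (adjusted p = 0.00286), Azin1 lower at -1.35 (adjusted p = 5.06e-05), Sat1 lower at -0.85 (adjusted p = 0.00205) and Oaz1 at 0.27 (adjusted p = 0.169). Leaving out KO2 and WT2, Oaz1 was called at 0.55 (adjusted p = 0.00124) and Aldh18a1 at 1.62 (adjusted p = 0.000100), both higher in goblet cells.

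Between genotypes none of the 4 lists had a called gene without a block, over all cells, in enterocytes or in goblet cells. Over all cells Arg1 was at a log2 fold change of 1.65 ± 0.54 and Nos2 at -2.14 ± 0.75 (adjusted p = 0.989 for both, and for Slc25a15 at 0.79 and Aldh18a1 at 0.25). With the replicate block over all cells (1.17% of genes called), Nos2 was lower in KO mice at -2.24 ± 0.22 (adjusted p = 0.0105), and no other list gene passed. With the block in goblet cells (3.01% called), Slc3a2, a chain shared by several amino acid transporters, was lower in KO mice at -0.74 (adjusted p = 0.00651), and no other list gene passed. With the replicate block in enterocytes, where 13.4% of genes passed, 4 list genes were higher in KO mice, namely Slc25a15 (1.09, adjusted p = 0.0152), Agmat (1.33), Got2 (0.78) and Pycrl (0.66). Another 4 were lower, namely Nos2 (-2.05, adjusted p = 0.000708), Ddah2 (-0.88), Paox (-0.95) and Azin1 (-0.48, adjusted p = 0.0305). Aldh18a1 (0.64, adjusted p = 0.0517), Slc7a7 (0.12), Slc7a9 (0.07), Sat1 (0.05), Amd1 (-0.03) and Oaz1 (0.28) did not pass. Without KO2 and WT2, 1 list gene was higher, Slc25a15 at 1.43 (adjusted p = 0.0121), and 2 were lower, Nos2 at -1.83 (adjusted p = 0.0384) and Azin1 at -0.51 (adjusted p = 0.0420).

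The levels of the enzymes in the 18 sums of mouse and tertile were set beside those of 6298 other genes, as a description, since the sums share mice, pools and depth. Arg2 ran with Otc (Pearson r = 0.95), Oat (0.93) and Cps1 (0.90), against Odc1 (-0.82) and apart from Asl (0.05). The gene nearest to Arg2 was Fut8 (0.98), followed by Uqcr11 and Aldh1a1. Nearest to Otc was Bche (0.98), to Cps1 Bbip1 (0.97), to Oat Cldnd1 (0.97) and to Odc1 Fosb (0.95). The nearest genes of Ass1 (Suclg2, 0.84) and Asl (Gm16685, 0.74) were less alike.

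Enterocyte-gated cells with at least 0.1% of UMIs in an ileal bile acid list were set against the other enterocyte-gated cells. Within this set, 10 cells of each mouse held at least 97.6% of the set's UMIs of Fabp6, the ileal bile acid binding protein. Most cells of the set thus held little or none of that marker, and the set is named by its rule. Cps1 was lower in it at -1.31 ± 0.38 (adjusted p = 0.0472, 9.67% of 8850 genes called and 3.34% lower), and the call was lost without KO2 and WT2 (-1.20, adjusted p = 0.0907). It was also lost when any 1 mouse other than WT2 was left out, and the log2 fold change ran from -2.05 without WT2 to -0.60 without KO2. None of the other tested enzymes passed. In KO2 the set had 29.0 CPM of Arg2, against 597 CPM in the other enterocyte-gated cells, while in WT2 the set had 338 CPM, against 307 CPM in the others.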

How the data were processed

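Single-cell 3′ RNA and hashtag oligonucleotides were counted as unique molecular identifiers (UMIs) per barcode, and the values deposited by the authors are whole UMI counts. Per the submitters' processing notes, Cell Ranger 7.0.1 and Seurat 4.1.0 were used on mm10, and whether intronic reads were counted is not given in the sources used here. Levels are CPM, the UMIs of a gene per 1000000 gene UMIs of the same sum of cells. The members and the lists were chosen with earlier results of these data known.

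Hashtags were called on all deposited barcodes with HTODemux (Seurat 5.3.0, quantile 0.99), which marked 305 KO and 549 WT of the kept barcodes as doublets and 855 KO and 2241 WT as without a hashtag, and these were left out of the comparisons. Gates were cells with at least 5% of UMIs in the Paneth list, 1% enteroendocrine, 0.3% tuft, 5% goblet, 0.1% crypt stem or 0.08% cycling (crypt), 1% enterocyte and 0.1% immune, in the order immune, Paneth, enteroendocrine, tuft, goblet, crypt, enterocyte. These percentages were set after the marker distributions were seen, and 141 assigned cells met none. The position score is the mean z of the villus-top list minus that of the villus-bottom list, and its tertiles are cut over all assigned enterocyte-gated cells.

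Raw UMI counts were summed per mouse and tested with edgeR 4.0.16 (TMM, filterByExpr, quasi-likelihood, Benjamini-Hochberg over all tested genes, threshold 0.05) in R 4.3.3, with DESeq2 1.42.0 as an alternative, after tests on simulated data. The SE printed with an edgeR log2 fold change was derived as its absolute size divided by the square root of its quasi-likelihood F statistic. Nothing in the labels says how the mice were housed or bred, and p-values cover the spread between hashtags within 1 pool per genotype. Replicate numbers were checked for pairing by the correlation of deviations from the genotype mean over genes. KO1 with WT1, KO2 with WT2 and KO3 with WT3 correlated at 0.42, 0.85 and 0.64 over all cells, at 0.69, 0.85 and 0.53 in enterocytes and at 0.43, 0.68 and 0.32 in goblet cells. The numbers were treated as pairing, although no label states it. In the same order of cells, KO1 with WT3 reached 0.64, 0.59 and 0.39, and KO3 with WT1 reached 0.46, 0.52 and 0.21. Only KO2 with WT2 thus stood out, and these correlations do not settle how the mice numbered 1 and 3 pair. Named pathway genes are the 10 largest called changes in a comparison, with 10 genes given whatever their result (Arg1, Nos2, Aldh18a1, Slc25a15, Slc7a7, Slc7a9, Sat1, Amd1, Azin1 and Oaz1). One result of a pathway list is not reported here.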

Additional observations from a re-analysis of the deposited data

Results flagged for a closer look

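Barcodes without a hashtag entered no comparison, and they too held Arg2. In the bottom tertile of the position score Arg2 was at 664 CPM in the KO barcodes without a hashtag, against 247 CPM in the WT ones. The KO set held 219 barcodes with 5582442 UMIs and the WT set 720 barcodes with 4506330 UMIs, so the KO barcodes were deeper. In the middle tertile these barcodes had 26.1 CPM in KO, against 12.2 CPM in WT, and in the top tertile 21.8 CPM in KO, against 7.50 CPM in WT. They were looked at because the signal lies outside the cells compared, they cannot be split by mouse, and the difference was not tested.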

How the results depend on the processing

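Of 721 alternative values, 617 kept their direction and side of the threshold, 16 fell short of it, 14 newly passed it and 74 changed sign. Counts of enzymes called between genotypes moved to 1 over all cells with the replicate block (1.17% of genes called). In enterocytes they moved to 2 without both mice of hashtag 2 (5.78% of genes called). With the replicate block they moved to 3 in enterocytes, both with those mice (13.4% of genes called) and without them (441 genes higher and 690 lower of 10614). These counts include Arg2, whose difference between genotypes was known when the enzymes were chosen. In the bottom tertile the counts moved to 2 with the replicate block (4.37% of genes called) and to 2 without hashtag 2 (4.19%). Without hashtag 2 they moved to 1 in the middle tertile (3.53%) and to 0 in the top tertile (4.34%). With single mice left out they ranged from 0 to 2 in the middle tertile and 0 to 1 in the top tertile. Thinning cells to 2000 UMIs left 3 enzymes called between tertiles and 2 between gates, because fewer passed the filter on low counts. Among all genes, 1339 were then higher and 1495 lower of 4927 between tertiles. Between gates 1778 were higher and 1794 lower of 5797. For the ileal list the count was 0 without hashtag 2 (605 genes higher and 351 lower of 8565) and ran from 0 to 1 with single mice left out. The block changed no other call of the 7 enzymes.

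Some folds changed sign under other settings. Between genotypes over all cells, Odc1 was at 0.055 with a mitochondrial limit of 15%. In enterocytes it was at 0.0064 after thinning. In goblet cells, Arg2 was at -0.015 without hashtag 2, -0.040 with the block as well and -0.072 with doubled gate limits; Otc was at -0.056, -0.0087 and -0.14 under the same settings, and Odc1 at -0.54 after thinning. Top over bottom, Asl was at 0.12 without hashtag 2 and 0.0016 with the top list alone. The difference of that fold between genotypes was 0.20 and 0.25 for Arg2 (15% limit, hashtag ratio of at least 3), 0.078 for Asl without hashtag 2, -1.17 and -0.13 for Otc (thinned, top list alone), and 0.14, 0.10 and 0.00087 for Oat (thinned, tertiles within each mouse, top list alone). Goblet over enterocyte at the 15% limit, Asl was at 0.076 and Oat at -0.088. In the ileal split without hashtag 2, Oat was at -0.21 and Odc1 at -0.019. The causes were not tested.

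Folds whose sign changed when 1 mouse was left out had these ranges of the log2 fold change. For KO over WT over all cells it ran from -0.21 to 2.53 (Arg2), from -1.29 to 3.25 (Otc), from -2.42 to 3.61 (Cps1), from -1.08 to 1.92 (Oat), from -0.26 to 0.11 (Odc1). In enterocytes it ran from -0.47 to 3.19 (Arg2), from -0.90 to 3.23 (Otc), from -1.12 to 3.35 (Cps1), from -0.93 to 1.98 (Oat), from -0.38 to 0.069 (Odc1). In goblet cells it ran from -0.20 to 0.60 (Arg2), from -0.74 to 0.98 (Otc), from -1.57 to 2.70 (Cps1), from -0.21 to 0.52 (Oat). For top over bottom it ran from -0.27 to 0.073 (Asl). For the difference of that fold between genotypes it ran from -1.40 to 0.91 (Arg2), from -0.70 to 0.12 (Asl), from -0.998 to 2.24 (Otc), from -1.12 to 2.06 (Cps1), from -1.26 to 0.64 (Oat). For goblet over enterocyte it ran from -0.033 to 0.46 (Oat). For the ileal list it ran from -1.03 to 0.21 (Otc), from -0.29 to 0.25 (Oat), from -0.026 to 0.088 (Odc1). For KO over WT in the bottom tertile it ran from -0.32 to 2.68 (Arg2), from -0.69 to 2.73 (Otc), from -1.28 to 2.86 (Cps1), from -0.85 to 1.66 (Oat). For KO over WT in the middle tertile it ran from -0.090 to 0.12 (Odc1).

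Over the whole table the count of genes called ran from 0 to 152 between genotypes over all cells, 0 to 1429 in enterocytes and 0 to 944 in goblet cells, against 0, 0 and 4 in the fits as reported. It ran from 2834 to 7620 for top over bottom, from 0 to 81 for the difference of that fold between genotypes, from 3572 to 7740 for goblet over enterocyte and from 349 to 1363 for the ileal list. By tertile it ran from 0 to 423 in the bottom, 218 to 811 in the middle and 186 to 572 in the top.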
